A study of Mus musculus with 2 samples.

Results

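The 10 heat shock and chaperone genes Hspa1a, Hspa1b, Hspa8, Hsph1, Dnajb1, Hsp90aa1, Hspb1, Hspd1, Hspe1 and Hspa5 were followed across ependymal, endothelial and mural cells of the adult mouse spinal cord. They were chosen by their measured counts in these cells, as a list of 10 names drawn up after an earlier clustering in which Hspa1a and Hspa1b led 1 endothelial group, so their high level in endothelial cells is a description here and was not tested. All 10 were present in both count tables, which held 23436 genes in the non-traced library and 20453 in the traced library, 24071 genes in either. The study asked how ependymal cells with a history of expressing DNGR-1, a receptor encoded by Clec9a, compare with the ependymal cells without it. Both libraries came from adult C57BL/6j mice of 10 to 12 weeks that were homozygous for Cre at Clec9a and for a Cre-dependent tdTomato reporter at Rosa26, so the non-traced cells carried the same alleles. Because Cre runs from the Clec9a locus, tdTomato marks past or present activity of that locus and not an ependymal cell as such. Live, CD45- and CD133+ spinal cord cells were sorted by tdTomato into 1 non-traced and 1 traced library, and how many mice were pooled was not given in the sources used here.

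The non-traced library held 25411 cells and 233318692 unique molecular identifiers (UMIs, counts of captured RNA molecules), with a median of 7218 a cell, and the traced library held 4825 cells and 46530507 UMIs, with a median of 8566. There was 1 library a group and no replicate, so no difference below carries a test, and every interval is an exact 95% interval that covers counting error only. Clusters were named from marker genes, and because the CD133 sort also took up vascular cells, 20641 non-traced cells were endothelial-like (4947 arterial-like, 13146 capillary-like and 2548 venous-like). Ependymal-like cells numbered 817 non-traced and 4487 traced. Clusters led by Ucma with ependymal markers were kept apart, with 372 non-traced and 218 traced cells, because the traced one also carried the pericyte gene Vtn among its leading genes. Mural cells were the 133 pericyte-like and 81 smooth muscle-like cells, all non-traced, whose endothelial markers were at most 10% of the endothelial level. A further 1466 cells with mural and endothelial markers and 711 with ependymal and endothelial markers were counted as mixed, and only 64 traced cells were endothelial-like. Another non-traced cluster of 923 cells, led by Rgs5 and mixed by its endothelial and pericyte markers, was not among the 1466 and was in no group used here. All 8 endothelial markers were detected in the non-traced ependymal-like cells, summed to 1161 UMIs per 1000000 UMIs of the group (CPM) or 4.12% of the non-traced endothelial-like level, against 13.8 CPM in the traced ependymal-like cells. The reporter transcript reached 66.4 CPM in the non-traced and 317.5 CPM in the traced library. It stood at 315 CPM in the traced endothelial-like cells and 321 CPM in the traced ependymal-like cells. The libraries shared 42 barcodes, 0.870% of the traced ones.

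Heat shock proteins are chaperones that hold unfolded proteins in solution, help them fold or pass them on for degradation. The Hsp70 proteins bind exposed segments of a client with the help of J proteins and nucleotide exchange factors and hand clients to Hsp90, small heat shock proteins hold unfolding proteins without ATP, and the mitochondrial chaperonin and the Hsp70 of the endoplasmic reticulum do this work inside those organelles. Heat shock factor 1 switches on many of these genes through repeated heat shock elements in their promoters, the unfolded protein response acts on the organelle Hsp70, and enzymatic digestion of tissue at warm temperature is a known trigger of both immediate early genes and inducible Hsp70 in single-cell preparations.

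The members differ in the elements found in the promoter windows read here. The 250 bases before the start site were read from RefSeq (GRCm38.p6) for the 8 members with an entry, and no entry was used for Hspa8 or Hsp90aa1. Searched on both strands were the heat shock element of 3 units, GAANNTTCNNGAA or TTCNNGAANNTTC, its 2-unit parts GAANNTTC and TTCNNGAA, which lie inside it, and the endoplasmic reticulum stress element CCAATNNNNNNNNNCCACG. The 3-unit element was found in 0.470% of 32526 promoters of this length, GAANNTTC in 6.72%, TTCNNGAA in 7.19% and the stress element in 0.114%. The 5 promoters below are shown because they stand for the member classes compared here, with matches in capitals.
Hspa1a chr17:34972157-34972406, minus strand: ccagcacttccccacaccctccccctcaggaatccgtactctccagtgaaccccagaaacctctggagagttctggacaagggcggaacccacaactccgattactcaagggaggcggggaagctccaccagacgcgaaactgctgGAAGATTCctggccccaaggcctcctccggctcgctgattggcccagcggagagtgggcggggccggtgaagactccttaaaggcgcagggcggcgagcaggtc
Hspb1 chr5:135887669-135887918, plus strand: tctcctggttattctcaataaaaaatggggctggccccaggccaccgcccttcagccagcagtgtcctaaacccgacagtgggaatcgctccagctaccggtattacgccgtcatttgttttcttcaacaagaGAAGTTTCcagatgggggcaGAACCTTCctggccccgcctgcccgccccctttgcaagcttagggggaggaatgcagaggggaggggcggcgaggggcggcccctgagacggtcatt
Hsph1 chr5:149636337-149636586, minus strand: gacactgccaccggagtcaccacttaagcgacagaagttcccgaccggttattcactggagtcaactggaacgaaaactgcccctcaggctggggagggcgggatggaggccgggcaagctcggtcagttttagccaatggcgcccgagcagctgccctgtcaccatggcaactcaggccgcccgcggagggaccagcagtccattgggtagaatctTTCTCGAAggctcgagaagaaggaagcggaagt
Hspe1 chr1:55087898-55088147, plus strand: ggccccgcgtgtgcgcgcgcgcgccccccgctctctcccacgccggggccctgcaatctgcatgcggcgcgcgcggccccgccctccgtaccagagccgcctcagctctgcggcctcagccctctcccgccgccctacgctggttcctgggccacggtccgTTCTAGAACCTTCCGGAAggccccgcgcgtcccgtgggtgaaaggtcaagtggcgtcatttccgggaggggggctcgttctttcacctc
Hspa5 chr2:34771840-34772089, plus strand: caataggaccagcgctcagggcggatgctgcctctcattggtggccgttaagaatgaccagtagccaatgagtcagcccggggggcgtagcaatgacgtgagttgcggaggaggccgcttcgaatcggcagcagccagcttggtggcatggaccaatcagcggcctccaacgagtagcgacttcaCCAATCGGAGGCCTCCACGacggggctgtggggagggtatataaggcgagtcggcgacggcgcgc

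Hspa1a held a single GAANNTTC match that started 104 bases before the start site, and Hspa1b held the same match at the same distance. These promoters were identical in 247 of 250 bases (98.8%). Hspb1 held GAANNTTC matches 117 and 97 bases before its start, and Hsph1 held TTCNNGAA 33 bases before its first start. The 3-unit element appeared in the promoter that Hspe1 and Hspd1 share, as overlapping matches that began 89 and 84 bases before the start of Hspe1. The window of another Hspd1 start (55088244 to 55088493) held none of the elements searched. The stress element was found 65 bases before the start of Hspa5, and none of these letters were present in the windows of Dnajb1. The Dnajb1 window at 83608298 to 83608547 lies inside the gene, which begins at 83608193. A match describes letters in this window and is not a measured binding site.

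Hspa1a encodes a stress-inducible cytosolic Hsp70 and lies on chromosome 17 (GRCm38, 34969190 to 34972156, minus strand). In ependymal-like cells its level was 150 CPM (146 to 154) traced and 267 CPM (255 to 280.1) non-traced, and 151 and 286 CPM in the traced and non-traced Ucma-led cells. In the vascular groups it was 1627 CPM in arterial-like, 1966 in capillary-like and 1895 in venous-like cells, 2201 (2091 to 2315) in traced endothelial-like cells, 2759.9 (2619 to 2907) in pericyte-like cells and 720.4 (656 to 789.6) in smooth muscle-like cells. Every vascular group thus lay above every ependymal group, and only the neighbouring ependymal groups of the same library had intervals that overlapped. Within the non-traced library the endothelial-like level was 6.96 times the ependymal-like level (6.64 to 7.29), a log2 difference of 2.79. Within the traced library it was 14.7 times (13.9 to 15.5), with 64 endothelial-like cells behind it. Thinned to 1000 UMIs a cell, 59.6% of non-traced endothelial-like, 19.5% of non-traced ependymal-like and 11.9% of traced ependymal-like cells held an Hspa1a UMI (87.1%, 63.6% and 43.3% without thinning). Cldn5, a tight junction gene of endothelium that ependymal cells should lack, was found at the same depth in 13.1% of the non-traced but 0.0446% of the traced ependymal-like cells, and these cells had median depths of 7305 and 8575 UMIs.

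Hspa1b, the neighbouring gene on chromosome 17 (34956436 to 34959238, minus strand), encodes a nearly identical Hsp70. In ependymal-like cells its level was 213 CPM traced and 322 CPM non-traced, with 166 and 241 CPM in the Ucma-led cells, 535, 729.6 and 729.7 CPM in arterial-, capillary- and venous-like cells, 614 CPM in traced endothelial-like cells and 889.7 CPM in pericyte-like cells. Smooth muscle-like cells had the lowest level, 102 CPM (79.1 to 131), below every ependymal group. The endothelial-like level was 2.10 times the ependymal-like one in the non-traced library (2.01 to 2.19) and 2.88 times in the traced library (2.60 to 3.17). Taken as whole groups, endothelial-like cells were thus higher than ependymal-like cells in both inducible genes, with a smaller step for Hspa1b.

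**Figure D1:**
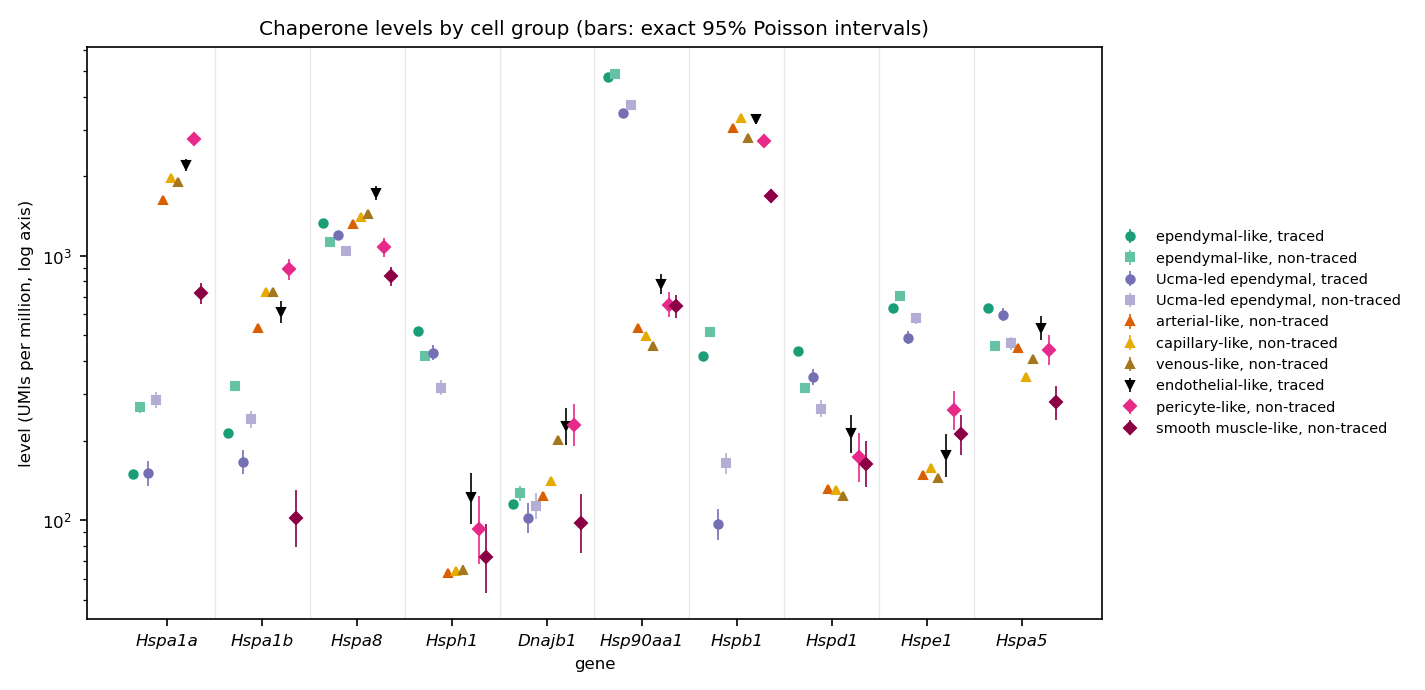
Level of each of the 10 genes (CPM, log axis) in 10 cell groups, as points with exact 95% counting intervals. Hspa1a, Hspa1b and Hspb1 are high in the endothelial groups and Hsp90aa1, Hsph1, Hspd1 and Hspe1 in the ependymal groups, while Hspa8, Dnajb1 and Hspa5 differ less.

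The balance of the inducible pair differed between cell groups. There were 2.75 Hspa1a UMIs for each Hspa1b UMI in non-traced endothelial-like cells (2.74 to 2.77), 3.04 in arterial-like, 2.69 in capillary-like and 2.60 in venous-like cells, and 3.59 (3.22 to 4.01) in traced endothelial-like cells. The ratio was 0.703 (0.681 to 0.726) in traced and 0.830 (0.779 to 0.884) in non-traced ependymal-like cells, and 0.907 and 1.19 in the traced and non-traced Ucma-led cells. Smooth muscle-like cells had the highest ratio, 7.03 (5.41 to 9.26, from 457 and 65 UMIs), and pericyte-like cells were at 3.10. The groups therefore fell on both sides of equal counts, with the ependymal-like groups below it and the vascular groups above. No 50-base window of the last 500 transcript bases of Hspa1a or Hspa1b was found in another transcript. The ratio does not give their relative abundance, because capture of the 3′ ends of different transcripts can differ, and it is compared only between groups.

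**Figure D2:**
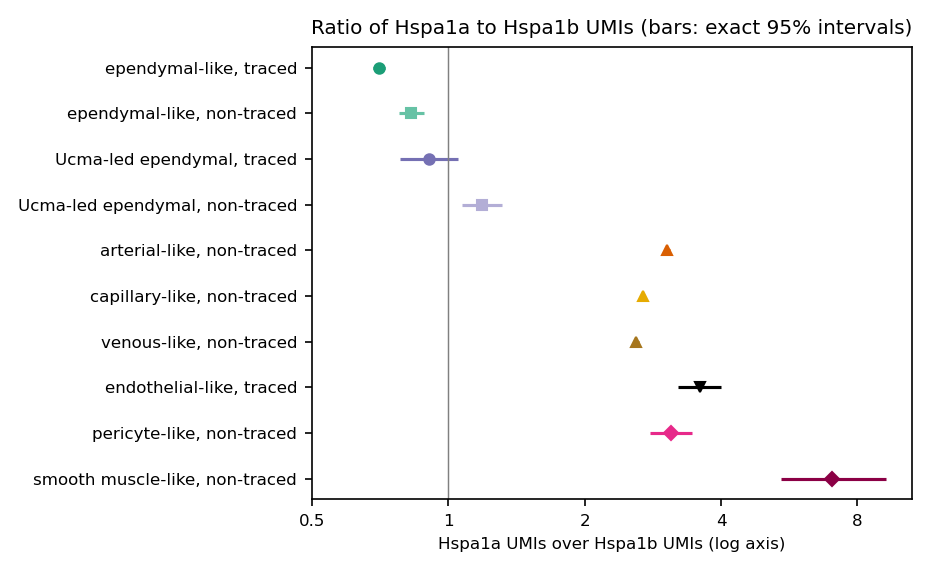
Ratio of Hspa1a to Hspa1b UMIs (log axis) in 10 cell groups, with exact 95% counting intervals and a line at 1. The ratio ran from 0.703 in traced ependymal-like cells to 7.03 in smooth muscle-like cells.

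In endothelial-like and mural cells the inducible genes also varied widely from cell to cell. Among 20458 non-traced endothelial-like cells thinned to 3000 UMIs, Hspa1a had a median of 3 UMIs, 22.4% of cells had none, 10% had at least 15 and the highest had 69. Its variance was 8.56 times its mean, against a median of 1.39 over 81 genes of similar mean, and for Hspa1b it was 4.22 times, against 1.16. In 174 mural cells, pericyte-like and smooth muscle-like together, 38.5% had no Hspa1a UMI. Their variance was 16.8 times the mean for Hspa1a, against 2.04, and 6.57 times for Hspa1b, against 1.27. In 4454 traced ependymal-like cells 75.1% had no Hspa1a UMI, and the variance was 2.69 times the mean, against 1.04.

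**Figure D3:**
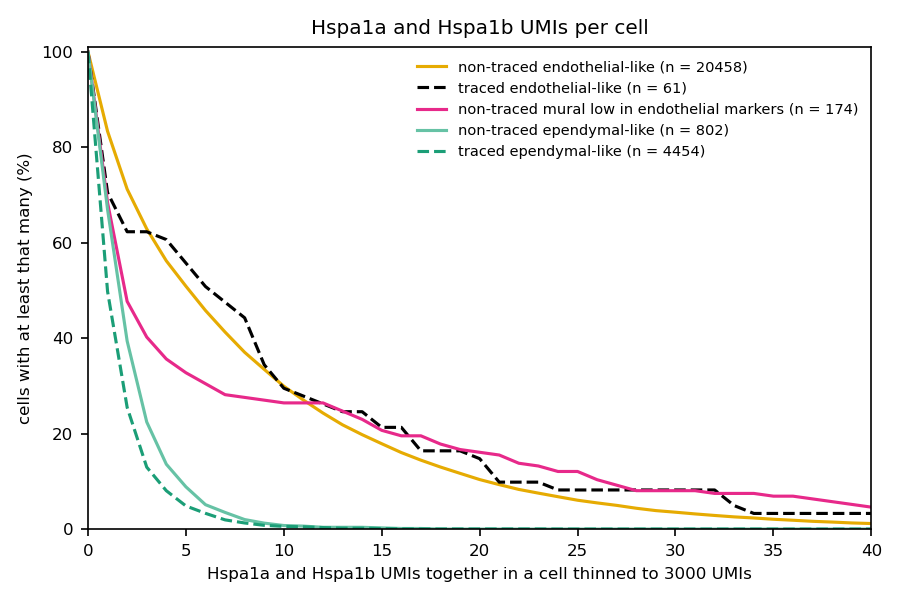
Share of cells (%) that held at least a given number of Hspa1a and Hspa1b UMIs together, each cell thinned to 3000 UMIs, by cell group. At 1 or more UMI the non-traced endothelial-like curve stands at 83.3%, and its tail runs to higher numbers than both ependymal-like curves.

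Across the 12 non-traced endothelial-like clusters, found without the chaperone and immediate early genes, Hspa1a ran from 840.2 CPM in 148 venous-like cells led by Lrg1 and Ackr1 to 2733 CPM in 1373 capillary-like cells led by Ttyh2, Ndnf, Ivns1abp and Meox1. The same clusters were lowest and highest for Hspa1b, at 289 and 1151 CPM, and for Hspb1, at 2356 and 3689 CPM. Neither inducible gene was among the 10 leading genes of any endothelial-like cluster, in this clustering or in the others run, and its best rank by fold was 13, in the Ttyh2-led cluster. This clustering and the integrated one left both genes out of the features, so neither could readily form a group led by them. In the clustering that kept them their best rank was 16, and no endothelial group led by Hspa1a and Hspa1b was seen there. In the 9 traced ependymal-like clusters Hspa1a ran from 50.8 CPM in 43 cells led by the proliferation genes Hist1h1b and Mki67 to 190 CPM in 563 cells led by Mthfd1l and Pcdh8. All 9 lay below the lowest endothelial-like cluster. The mixed cells with ependymal and endothelial markers had 1052 CPM of Hspa1a, within the endothelial-like range, and 2282 CPM of Hsp90aa1, between the endothelial-like and ependymal-like ranges, and those with mural and endothelial markers had 1748 and 584 CPM.

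**Figure D4:**
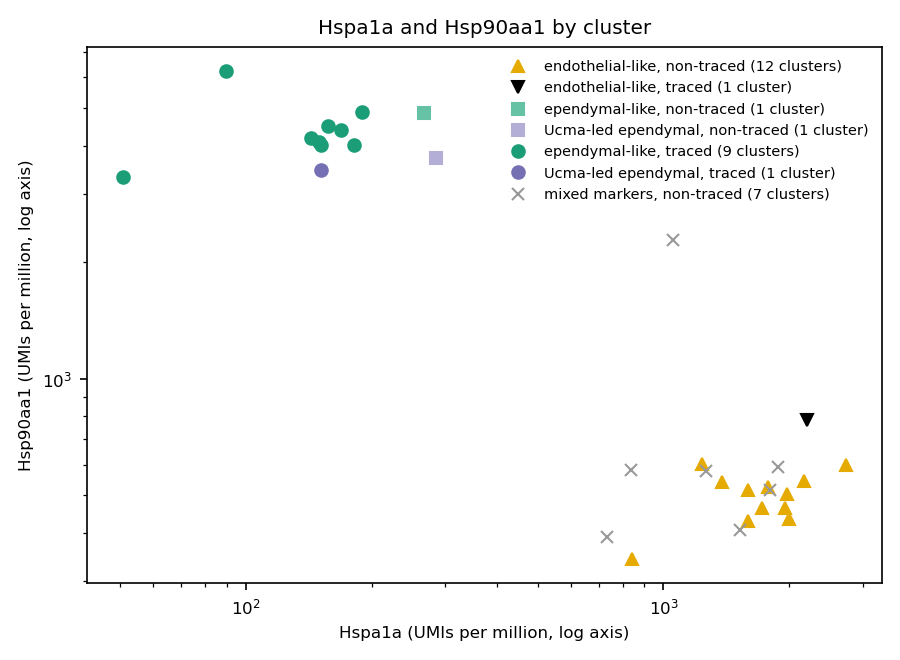
Hspa1a against Hsp90aa1 (CPM, both axes log), 1 point a cluster. The 12 non-traced endothelial-like clusters lie at 840.2 to 2733 for Hspa1a and 342 to 602 for Hsp90aa1, and the 9 traced ependymal-like clusters at 50.8 to 190.2 and 3329.8 to 6222, so they overlap on neither axis.

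Hspa8 encodes the constitutive cytosolic Hsp70 (Hsc70), which works in unstressed cells. In ependymal-like cells it was at 1325 CPM traced and 1128 CPM non-traced, with 1195 and 1041 CPM in the Ucma-led cells, 1313, 1408 and 1438 CPM in arterial-, capillary- and venous-like cells, 1729 CPM in traced endothelial-like cells, 1079 CPM in pericyte-like and 835 CPM in smooth muscle-like cells. The range between groups was therefore narrow, and the endothelial-like level was 1.23 times the ependymal-like level in the non-traced library (1.20 to 1.26). Hspa8 counts are uncertain, since 81.8% of the 50-base windows at its 3′ end also occur in other transcripts, among them Gm15459, and reads of such windows could have been dropped or placed elsewhere.

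Hsph1 (Hsp110), a nucleotide exchange factor for Hsp70 on chromosome 5, ran against the inducible Hsp70 genes. It reached 520.4 CPM (514 to 527) in the traced ependymal-like cells and 417 CPM (402 to 433) in the non-traced ones, 431 and 317 CPM in the Ucma-led cells, 63.1, 64.5 and 64.9 CPM in arterial-, capillary- and venous-like cells, 122 CPM in traced endothelial-like cells, 92.8 CPM in pericyte-like and 72.5 CPM in smooth muscle-like cells. All ependymal groups were above all vascular groups, and the 3 non-traced endothelial segments had overlapping intervals. The ependymal-like level was 6.50 times the endothelial-like one in the non-traced library (6.23 to 6.78) and 4.26 times in the traced library (3.44 to 5.35).

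Dnajb1, a J protein (Hsp40) that stimulates the ATPase of Hsp70, was low in every group. Traced ependymal-like cells had 115 CPM and non-traced ones 126 CPM, with 102 and 114 CPM in the Ucma-led cells, 124, 140.3 and 201 CPM (196 to 206) in arterial-, capillary- and venous-like cells, 227 CPM (192 to 265) in traced endothelial-like cells, 230.2 CPM (191 to 275) in pericyte-like and 97.7 CPM in smooth muscle-like cells. Pericyte-like, traced endothelial-like and venous-like cells were highest, with overlapping intervals, although traced endothelial-like cells had 104 CPM when the libraries were integrated. The endothelial-like level was 1.16 times the ependymal-like one in the non-traced library and 1.97 times (1.67 to 2.31) in the traced library, a log2 difference of 0.97 that turned to -0.14 when the libraries were integrated.

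Hsp90aa1, the inducible cytosolic Hsp90 on chromosome 12, was the member with the widest step towards ependyma. Traced ependymal-like cells had 4724 CPM (4703 to 4744) and non-traced ones 4856 CPM (4803 to 4909.5), with 3469.9 and 3719.7 CPM in the Ucma-led cells, 531, 496 and 457 CPM in arterial-, capillary- and venous-like cells, 784 CPM in traced endothelial-like cells, 654 CPM in pericyte-like and 645 CPM in smooth muscle-like cells. No vascular group came near an ependymal one. The ependymal-like level was 9.73 times the endothelial-like level in the non-traced library (9.61 to 9.85) and 6.02 times in the traced library (5.53 to 6.57). In the traced endothelial-like cells the ependymal markers stood at 624 CPM, or 6.03% of the traced ependymal-like level, and that share of the ependymal Hsp90aa1 level would be 285 of the 784 CPM. In 4454 traced ependymal-like cells thinned to 3000 UMIs the median was 13 Hsp90aa1 UMIs (10th to 90th percentile 7 to 22) and no cell had none. The level varied 1.87 times between the 9 traced ependymal-like clusters, and 882 cells led by Sntn, Anxa8, Sncg and Phlda3 had the highest, 6222 CPM, and also the highest Hsph1 at 605 CPM.

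Hspb1 (Hsp25 in the mouse), an ATP-independent small heat shock protein that also binds the actin cytoskeleton, followed Hspa1a. It was measured at 416 CPM (410.4 to 423) in the traced ependymal-like cells and 516 CPM (498 to 533) in the non-traced ones, 97.0 and 164 CPM in the Ucma-led cells, 3045, 3308 and 2789.8 CPM in arterial-, capillary- and venous-like cells, 3293 CPM in traced endothelial-like cells, 2725 CPM in pericyte-like and 1685 CPM in smooth muscle-like cells. It was the member that set the Ucma-led cells most apart from the other ependymal cells, which had 4.29 times their level in the traced library (3.76 to 4.93) and 3.14 times in the non-traced library (2.85 to 3.47). The endothelial-like level was 6.10 times the ependymal-like one in the non-traced library (5.90 to 6.32) and 7.91 times in the traced library (7.56 to 8.26). Of its 3′ windows 16.0% are shared with the pseudogene Hsp25-ps1.

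Hspd1 (Hsp60) and Hspe1 (Hsp10) form the mitochondrial chaperonin and its lid, and the genes share a promoter on chromosome 1. Hspd1 was at 438 CPM (432 to 444) in the traced ependymal-like cells and 316 CPM (303 to 330.3) in the non-traced ones, 348 and 265 CPM in the Ucma-led cells, 132, 129.7 and 123 CPM in arterial-, capillary- and venous-like cells, 213 CPM in traced endothelial-like cells, 174 CPM in pericyte-like and 164 CPM in smooth muscle-like cells. Hspe1 was at 633 CPM in the traced ependymal-like cells and 707 CPM in the non-traced ones, 491 and 582 CPM in the Ucma-led cells, 148, 158 and 144 CPM in arterial-, capillary- and venous-like cells, 177 CPM in traced endothelial-like cells, 261 CPM in pericyte-like and 211 CPM in smooth muscle-like cells. Both genes were highest in the 4 ependymal groups. The ependymal-like level of Hspd1 was 2.45 times the endothelial-like one in the non-traced library (2.34 to 2.56) and 2.05 times in the traced library (1.74 to 2.43), and that of Hspe1 was 4.62 times (4.48 to 4.77) and 3.59 times in the same order of libraries. The partners parted between the ependymal libraries, where Hspd1 was the higher in traced cells and Hspe1 the lower. Hspe1 counts are uncertain, as 53.2% of its 3′ windows occur in other transcripts, pseudogenes of Hspe1 among them.

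Hspa5 (BiP), the Hsp70 of the endoplasmic reticulum and a sensor partner of the unfolded protein response, differed little between endothelium and ependyma. Ependymal-like cells had 637 CPM when traced and 457 CPM when not, 599.9 and 467 CPM in the Ucma-led cells, 448, 349.5 and 406 CPM in arterial-, capillary- and venous-like cells, 536 CPM in traced endothelial-like cells, 441 CPM in pericyte-like and 279 CPM in smooth muscle-like cells. The endothelial-like level was 0.847 times the ependymal-like one in the non-traced library (0.816 to 0.878) and 0.841 times in the traced library (0.756 to 0.932). Each traced group was above its non-traced counterpart, 1.40 times for ependymal-like (1.34 to 1.45), 1.29 times for Ucma-led (1.19 to 1.39) and 1.39 times for endothelial-like cells (1.25 to 1.54).

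Set side by side between endothelial-like and ependymal-like cells of the non-traced library, 3 of the 10 members (Hspa1a, Hspa1b and Hspb1) were at least 2-fold higher, where 20.7% of 8260 genes were, and 4 (Hsp90aa1, Hsph1, Hspe1 and Hspd1) were at least 2-fold lower, where 25.8% were. Nothing is read from these counts, since the choice of the members rested on this contrast. In the traced library the same 3 were higher (22.1% of 8512 genes) and the same 4 lower (25.3%), and all 10 differences had the same sign in both libraries, except Dnajb1 when the libraries were integrated. The median log2 difference of the members was -0.02 in the non-traced and 0.07 in the traced library, with all genes at -0.03 and -0.01.

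**Figure D5:**
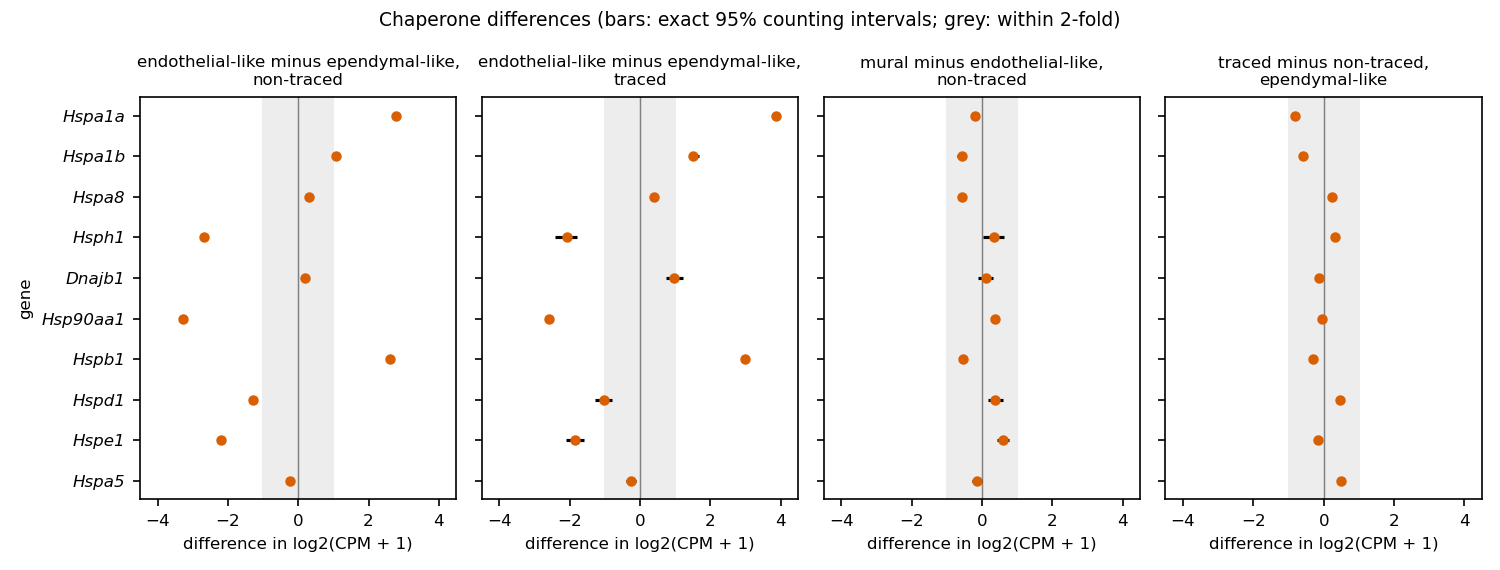
Log2 difference in CPM (pseudocount of 1) of each gene in 4 comparisons, with exact 95% counting intervals, and with the range within 2-fold in grey. In the panels of endothelial-like minus ependymal-like cells 7 of the 10 genes lie outside the grey range in each library, 3 to the right and 4 to the left, and in the other panels none does.

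Traced and non-traced ependymal-like cells differed less. None of the 10 members was 2-fold higher or lower in traced cells, where 0.574% and 1.26% of 7318 genes were. The inducible pair was lower in traced cells. The log2 difference of Hspa1a, traced minus non-traced, was -0.83, and the non-traced level was 1.78 times the traced level (1.69 to 1.88). For Hspa1b the difference was -0.59 and the ratio 1.51 (1.44 to 1.58). The difference of Hspa1a was lower than that of all but 1.57% of genes and that of Hspa1b than all but 2.69%. The largest differences towards the traced cells were those of Hspa5 (0.48) and Hspd1 (0.47), followed by Hsph1 (0.32) and Hspa8 (0.23). The remaining members were slightly lower in traced cells, with Hspb1 at -0.31, Hspe1 at -0.16, Dnajb1 at -0.14 and Hsp90aa1 at -0.04, which turned to 0.05 with the Ucma-led cells joined. The Ucma-led cells gave the same sign for all 10 members, with Hspa1a at -0.92 and Hspb1 at -0.75, and again none was past 2-fold (0.991% of 7466 genes higher, 1.27% lower). The median log2 difference was -0.09 for the members and 0.03 for all genes in ependymal-like cells.

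Among non-traced ependymal-like cells cut by endothelial marker RNA, Hspa1a and Hspa1b were higher only in the richest set. Both also differed by immediate early genes in these cells. From the lowest to the highest of 5 such sets Hspa1a went from 189 to 336 CPM and Hspa1b from 278 to 406 CPM. Of the 817 non-traced ependymal-like cells, the 239 with endothelial markers at up to 1% of the endothelial level had 216 CPM of Hspa1a and 299 CPM of Hspa1b. The 299 cells between 1% and 2% had 226 and 309 CPM, and the 222 between 2% and 5% had 224 and 299 CPM. The 57 cells above 5% had 617 and 469 CPM. The 239 cells low in endothelial markers were above the traced level of 150 CPM for Hspa1a and 213 CPM for Hspa1b. They held 161 CPM of endothelial markers, against 13.8 CPM in the traced ependymal-like cells, so they were not matched in this RNA. The part of endothelial RNA in the difference was not tested. Scaled by the marker share of 4.12%, endothelial RNA would give 76.6 of the 267 CPM of Hspa1a, 27.8 of the 322 CPM of Hspa1b and 130 of the 516 CPM of Hspb1. Gm42418, a gene that takes up ribosomal RNA reads, also differed between traced (33309 CPM) and non-traced (12911 CPM) ependymal-like cells, as did the summed immediate early genes, at 8454 and 10181 CPM. Their part in the difference was not tested, and library and tracing cannot be told apart.

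Among endothelial segments no member was past 2-fold. The segments were not sharply parted. Of the 2548 venous-like cells 2400 were 1 cluster in which 4 venous but also 7 capillary markers were found. An arterial-like cluster of 1860 cells had 5 arterial and 7 capillary markers. Arterial-like cells were compared with capillary-like cells, where 2.40% of 6460 genes were 2-fold higher and 0.789% lower. The log2 difference was -0.27 for Hspa1a, -0.45 for Hspa1b and -0.18 for Dnajb1, which were lower in arterial-like cells, and 0.36 for Hspa5, which was higher. In venous-like against capillary-like cells (1.16% of 6379 genes higher, 0.423% lower), Dnajb1 was higher by 0.52 and Hspa5 by 0.22, while Hspb1 was at -0.25, Hspa1a at -0.05 and Hspa1b at the capillary-like level. Dnajb1 was the member with the widest step between segments. Summed immediate early genes stood at 19883 CPM in arterial-like, 22353 CPM in capillary-like and 37307 CPM in venous-like cells. The venous level of the inducible pair rested on 1 cluster. Without the clusters led by Cxcl10, Icam1 or Cxcl2 the venous-like cells were the 148 led by Lrg1 and Ackr1, and the differences from capillary-like cells were -1.30 for Hspa1a and -1.42 for Hspa1b.

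Mural cells also had no member past 2-fold against endothelial-like cells (16.1% of 7418 genes higher, 17.0% lower), but the pooled value hid opposite parts. The log2 difference, mural minus endothelial-like, was -0.18 for Hspa1a and -0.57 for Hspa1b, and 0.61 for Hspe1. Pericyte-like cells had 3.83 times the Hspa1a of smooth muscle-like cells (3.45 to 4.27) and 8.68 times the Hspa1b (6.69 to 11.4). For Dnajb1 this ratio was 2.35 (1.72 to 3.25), for Hspb1 1.62 (1.49 to 1.75) and for Hsp90aa1 1.01 (0.875 to 1.17). Taken alone, smooth muscle-like cells differed from endothelial-like cells by -1.37 for Hspa1a and -2.71 for Hspa1b, and pericyte-like cells by 0.57 and 0.40. Thinned to 1000 UMIs a cell, 53.4% of pericyte-like, 25.9% of smooth muscle-like and 59.6% of endothelial-like cells held an Hspa1a UMI. Their median depths were 3672, 7655 and 6888 UMIs, so the higher pooled level of pericyte-like cells did not come from a larger share of cells with the gene than in endothelium. The 159 mural cells with endothelial markers at up to 5% of the endothelial level had 1411 CPM of Hspa1a and the 55 cells between 5% and 10% had 2410.5 CPM. Mixed cells of the same clusters had 2025 CPM between 10% and 20%, 1789 CPM between 20% and 50% and 1738 CPM above 50%. The part of the endothelial RNA in this was not tested. Immediate early genes were at 22803 CPM in pericyte-like and 16419.7 CPM in smooth muscle-like cells.

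The 64 traced endothelial-like cells were close to the non-traced ones in Hspb1 and the inducible pair. None was past 2-fold (5.67% of 7018 genes higher, 1.07% lower), and Hspb1 differed by 0.07, Hspa1b by -0.14 and Hspa1a by 0.24. Hsph1 was higher in the traced cells by 0.92 (0.60 to 1.24), Hspd1 by 0.72, Hsp90aa1 by 0.65 and Dnajb1 by 0.63, but Dnajb1 turned to -0.52 when the libraries were integrated. Hsph1, Hspd1 and Hsp90aa1 are 3 of the 4 members that were at least 2-fold higher in ependyma, while the fourth, Hspe1, differed by 0.21 (-0.06 to 0.47). Ependymal markers stood at 624 CPM in the 64 traced cells against 27.2 CPM in non-traced endothelial-like cells, and the part of ependymal RNA in this was not tested.

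Across endothelial-like cells ordered by immediate early genes the inducible Hsp70 genes rose, but clusters and segments did not follow throughout. The 996 cells led by Cxcl2 had the highest Fos of the 12 endothelial-like clusters (6757 CPM) and 1381 CPM of Hspa1a. Venous-like cells had more summed immediate early RNA than capillary-like cells (37307 against 22353 CPM) but no more Hspa1a (1895 against 1966 CPM). When the 20641 non-traced endothelial-like cells were ordered by the share of 15 immediate early genes and cut into 5 equal sets, Hspa1a was 633 CPM in the lowest set, 1657, 2062 and 2229 CPM in the next ones and 2419 CPM in the highest. Dnajb1 went from 65.9 to 267 CPM and Hspb1 from 2464 to 3363 CPM, while Hspd1 stayed between 121 and 134 CPM. In traced ependymal-like cells Hspa1a was 111 CPM in the lowest set and between 156 and 166 CPM in the others, and Hsp90aa1 went from 4843 CPM in the lowest to 4122 CPM in the highest set. Their 856 cells led by the immediate early gene Atf3, with 8709.6 CPM of Fos, had 181 CPM of Hspa1a. In non-traced ependymal-like cells Hspa1a was 189 CPM in the lowest set, 213, 244 and 349 CPM in the next ones and 336 CPM in the highest, and Hspb1 went from 420 to 611 CPM. In Hspa1a all sets of ependymal-like cells were below the lowest endothelial-like set. For Hspa1b that set had 228 CPM, below all non-traced ependymal-like sets (232 to 406 CPM) and above all traced ones (184 to 227 CPM). The part of the immediate early response in these levels was not tested.

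Across non-traced endothelial-like cells the 8 genes most like the summed Hspa1a and Hspa1b value, of 6244 genes, were Hspb1 (Pearson r = 0.44), Jun (0.43), Jund (0.42), Dusp1 (0.37), Hsp90aa1 (0.33), Klf2 (0.32), Fos (0.30) and Hsp90ab1 (0.28). The list joins chaperones with immediate early transcription factors, the phosphatase Dusp1 and the flow-responsive factor Klf2. In traced ependymal-like cells, over 6965 genes, it held chaperones and co-chaperones alone, Hspa8 (0.20), Dnaja1 (0.20), Hspb1 (0.18), Hsph1 (0.18), Hspe1 (0.16), Hspa4 (0.15), Stip1 (0.14) and Hsp90ab1 (0.13). These are descriptions over 20641 and 4487 cells of 1 library each, the cells share depth and preparation, the ependymal values are weak, and the median over all genes was 0.002 and 0.008. After thinning to 3000 UMIs 7 and 6 of the 8 stayed among the first 8. In 817 non-traced ependymal-like cells the list held Hspb1 (0.25) but also the endothelial gene Cldn5, and 1 of the 8 stayed after thinning. Among pairs of members, Hspa1a and Hspa1b were the most alike in endothelial-like cells (r = 0.68) and Hsp90aa1 and Hspe1 in traced ependymal-like cells (0.31).

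The other chaperone genes, 76 with the immediate early list, were read from lists drawn up for the pathway. Between endothelial-like and ependymal-like cells of the non-traced library, 0 of 21 heat shock factors and cytosolic chaperones were 2-fold higher and 9 lower, the median log2 difference being -0.57, where 20.7% of all 8260 genes were higher and 25.8% lower, with a median of -0.03. The lowest were the Hsp70 relative Hspa2 (10.2 against 869 CPM), the Hsp110 relatives Hspa4l (-4.35) and Hspa4 (-2.99) and the factor Hsf2 (-2.13). Of 4 small heat shock proteins measured 3 were lower, Cryab (-6.10), Hspb6 (-3.68) and, just past the limit, Hspb11 (26.8 against 54.5 CPM), unlike the member Hspb1. Of 16 endoplasmic reticulum genes 5 were higher, among them Atf4 (1.64) and the J protein Dnajb9 (1.60), and 3 lower, among them Pdia4 (-2.01) and Dnajc3 (-1.50). Of 7 mitochondrial genes 2 were lower, the mitochondrial Hsp70 Hspa9 (-1.32) and Trap1 (-1.04), and of 8 TRiC subunits 2, Cct3 (-1.26) and Cct6a (-1.13). Of 15 immediate early genes 9 were higher and 1 lower, with Ier3 highest at 3.83.

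Between traced and non-traced ependymal-like cells no gene of the chaperone lists was past 2-fold. The largest differences were Pdia3 (0.65), Hsf2 and Cryab (0.54 and -0.54) and Chordc1 (0.51), and 2 immediate early genes, Ier3 (-1.12) and Ier2 (-1.01), were lower. Between mural and endothelial-like cells the muscle-type small heat shock proteins stood out, Hspb2 at 332 against 0.383 CPM and Cryab at 445 against 3.03 CPM, and Hspb8 was lower (5.21 against 70.6 CPM). Hspa2 was higher by 4.55, Hspa4l by 1.64, Dnajb4 by 1.19 and Hspa9 by 1.09. The member Hspb1 did not share that step, with a log2 difference of -0.55.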

How the data were processed

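Droplet-based 3′ single-cell RNA-seq was carried out on 1 library of CD133+ DNGR-1-traced and 1 of CD133+ non-traced spinal cord cells. The authors deposited the values as raw UMI counts per gene and cell, with no normalization, for 25411 non-traced and 4825 traced cells. Per the submitters' processing notes the tools were Cell Ranger 3.0.2, STAR 2.5.1b, R 3.6.0 and Seurat 3, on the mm10 build. The authors kept cells by filters on genes and mitochondrial reads, and all deposited cells passed the filter given for them. No labels or deposited annotation named cell types.

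Cells were clustered within each library in scanpy 1.11.5 (2000 variable genes without the 10 members, the other chaperones and the immediate early genes, 20 components, 15 neighbours, Leiden at a resolution of 0.8), which gave 21 non-traced and 12 traced clusters. A cluster was named for the class with the highest mean detection of its fixed markers, when at least 3 of them were each found in at least 50% of its cells. It was called mixed when at least 70% of another class's markers were so found, or when that class had more markers among the 10 leading genes. An endothelial-like cluster was venous-like with at least 4 venous markers so found. Failing that, it was arterial-like with at least 5 arterial markers, and otherwise capillary-like with at least 3 capillary markers. In all 1190 non-traced cells (4.68%) and 56 traced cells (1.16%) were in no group used here. The Ucma-led clusters were set apart, and mural cells limited to those with endothelial markers at up to 10% of the endothelial level, after the data were seen. Of the mural cells 55 had between 5% and 10%, and 44 cells of the same clusters had between 10% and 20%. Doublets were kept, since Scrublet called 1469 non-traced cells (5.78%, with 20.3% expected) and only 1 traced cell (0.0207%, with 3.86% expected). Doublets and cells with RNA of another type therefore remain in the groups, the mixed ones above all.

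Counts were summed over the cells of a group and given as CPM, with exact Poisson intervals. Differences are of log2(CPM + 1), over genes of at least 20 CPM in either group, with exact intervals for the ratio, and shares of cells have Clopper-Pearson intervals after thinning each cell to 1000 UMIs. Intervals cover counting error only, and with 1 library a group no test across libraries was possible. The members and gene lists were chosen with earlier results of these data known. All members are named, with up to 4 genes of each other list by size of difference and the 8 genes most like Hspa1a plus Hspa1b. Scripts were tested on simulated data (Python 3.11.15). In all 24 alternatives were tried, 15 of them planned and 9 added after the data were seen. For 1 of the 15, integration across libraries, as in the study, was run with Seurat 5.3.0 under R 4.3.3. Promoter sequences were taken from RefSeq (GRCm38.p6) and 3′ ends from GENCODE transcripts of GRCm38, the build of mm10.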

Additional observations from a re-analysis of the deposited data

Results flagged for a closer look

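Hspa1a was lower in traced than in non-traced cells among ependymal-like cells (log2 difference -0.83) and higher among endothelial-like cells (0.24), and Dnajb1 likewise (-0.14 and 0.63). These were picked out because the intervals of the same contrast lie on opposite sides of zero in these cell types. Each rests on 1 library a group and on 64 traced endothelial-like cells, and the difference between the cell types was not tested. With the libraries integrated the Dnajb1 difference in endothelial-like cells was -0.52, over 51 traced cells.

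In the same way Dnajb1 was lower in arterial-like (-0.18) and higher in venous-like cells (0.52) than in capillary-like cells, and Hsp90aa1 was higher in arterial-like (0.10) and lower in venous-like cells (-0.12). These differences between segments were not tested.

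Rows of processed pseudogenes, which no comparison used, also held counts. Those with the highest levels are given here, and the other pseudogene rows looked at were lower. In ependymal-like cells Hspd1-ps3 stood at 3.20 CPM traced and 3.34 CPM non-traced, and Hsp25-ps1 at 3.88 CPM in non-traced endothelial-like cells. Both are higher in the cell type where their parent gene is higher, and whether these are reads of the parents was not tested.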

How the results depend on the processing

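The 80 log2 differences of the members were recomputed 990 times under 24 alternatives, and 961 of the values kept their direction. Of the 14 differences past 2-fold none turned over in 182 values, and 1 fell within 2-fold, Hspd1 in endothelial-like minus ependymal-like cells of the traced library (-0.88 by the mean of each cell's own CPM). The 2-fold line was newly crossed by 4 values. They were those of Hspa1a and Hspa1b in 2 settings. With smooth muscle-like cells alone the differences from endothelial-like cells were -1.37 and -2.71. With the clusters led by Cxcl10, Icam1 or Cxcl2 left out, those of venous-like from capillary-like cells were -1.30 and -1.42. The share of all genes past 2-fold in these settings is not given here. Here the make-up of the group differs by construction. Hspa1a in ependymal-like cells, traced minus non-traced, ran from -0.95 to -0.52 and Hspa1b from -0.62 to -0.48. Hspb1 in the same comparison ran from -0.34 to -0.03. Dnajb1 in endothelial-like minus ependymal-like cells of the traced library ran from -0.14, with the libraries integrated, to 0.99, and the cause was not tested. No paired analysis was possible because each group was 1 library. With 64 traced endothelial-like and 81 smooth muscle-like cells, intervals of low genes such as Hsph1 are wide.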
